A study of Mus musculus with 8 samples.

Results

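The genes described here are 8 members of the cortical excitatory neuron programme, chosen by name: Tbr1, Neurod2, Neurod6, Neurod1, Emx1, Fezf2, Mef2c and Nrn1. Their levels were measured in samples labelled as mouse striatum, a tissue in which most neurons are inhibitory, although 1 label field also names the prefrontal cortex. Every probe that the arrays carry for these names was taken, which gave 11 probes. Of the 8 members, 7 had a probe bright enough to enter the fit, among 19844 genes tested in all, and Neurod1 did not. All 7 tested members had a higher mean in Brd2 heterozygous than in wildtype samples, from 0.18 (Fezf2) to 1.95 (Tbr1) on the log2 scale, and none passed the threshold of an adjusted p under 0.05 in limma. The fitted log2 differences of Nrn1, Neurod2 and Emx1 were 1.83, 1.44 and 1.18. For Tbr1 and Emx1, both wildtype samples labelled with the dye Cy3 were not well above background, so the size of these 2 differences depends on dim values. In both dyes, both heterozygous samples lay above both wildtype samples for Emx1 and Nrn1, as they did for 4.6% of the genes with values in all samples, and this did not hold for the other 5 tested members.

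Neurons of the cerebral cortex that release glutamate are born from dorsal telencephalic progenitors. The projection neurons and interneurons of the striatum arise ventrally, and most of them release GABA. EMX1 is a homeodomain protein of the dorsal progenitors and of the excitatory neurons they produce. NEUROD1, NEUROD2 and NEUROD6 are basic helix-loop-helix factors that bind E-box sequences and drive the differentiation of these neurons. TBR1, a T-box factor, and FEZF2, a zinc finger factor, specify corticothalamic and subcerebral projection neurons of the deep layers. MEF2C, a MADS-box factor, controls synapse number in response to activity and is also present outside the excitatory lineage. NRN1 (neuritin) is a membrane-anchored protein that promotes neurite growth and is not a transcription factor, so the set consists of 7 transcription factor genes and 1 neuronal gene that is abundant in cortical excitatory neurons.

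RNA came from the striatum of adult female mice on a C57Bl/6J background, offspring of crosses between Brd2+/- parents. There were 4 wildtype samples and 4 Brd2+/- samples, the latter with a gene-trap vector in 1 copy of Brd2, a gene for a chromatin-binding protein of the BET family. Samples were labelled in pairs of 1 genotype on 4 two-colour arrays, replicates 1 and 3 with the dye Cy3 and replicates 2 and 4 with Cy5. The submitters call the replicates biological. How many animals a sample holds, and their age beyond adult, is not stated in the labels. The p-values therefore cover the spread among these samples, part of which may be technical. The tissue field names the prefrontal cortex beside the striatum, whereas the descriptions of the samples give only the striatum. The dopamine receptor genes of striatal projection neurons were measured in both genotypes: Drd1 was well above background in 8 of 8 samples, at 11.00 to 12.75 log2 units, and Drd2 in 7 of 8, at 9.03 to 10.39. The scanner software's call of "well above background" was met by 37.7% to 47.6% of spots in Cy3 and by 65.9% to 75.5% in Cy5. The library labelled heterozygous replicate 3 had the lowest share. Nonspecific signal was higher in Cy3, where negative control spots had a median intensity of 244 to 261, against 63.3 to 66.6 in Cy5. The number of arrays limits the precision of all values.

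The targeted gene checks the labels only in part, because no source used here gives the position of its probe relative to the gene trap. Brd2 measured 13.08, 12.96, 12.62 and 12.68 log2 units in wildtype replicates 1 to 4, and 11.94, 11.85, 12.56 and 11.69 in heterozygous replicates 1 to 4. The groups did not overlap, but the library labelled heterozygous replicate 3 lay next to the lowest wildtype sample. The mean difference was -0.82 (SE 0.19, limma adjusted p = 0.433). Member values without that library are given with the comparison of genotypes.

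The probes decide what part of each transcript was measured. Each is a 60-base oligonucleotide, and coordinates below are those of the files, on mouse build mm9. No annotation of that build was used, so positions within a transcript are those that the files give for the named RefSeq or Ensembl transcript, and exon, intron or UTR labels are not assigned. Tbr1 had a probe at chr2:61652093-61652152 on the plus strand, starting at base 3898 of its transcript, and another at chr2:61644054-61644113, starting at base 970. The Neurod2 probe lay at chr11:98187943-98188002 on the minus strand (base 1865), and the Neurod6 probe at chr6:55628006-55628065 on the minus strand (base 1900). Neurod1 had probes at chr2:79293621-79293680 (base 1611) and chr2:79294309-79294368 (base 923), both on the minus strand. The Emx1 probe lay at chr6:85154062-85154121 on the plus strand (base 777), and the Fezf2 probe at chr14:13175057-13175116 on the minus strand (base 1593). The Mef2c probe spanned chr13:83772788-83775025 on the plus strand (base 1104), 2238 bases of genome for 60 bases of probe, so its bases lie apart in the genome and are joined in the transcript. Nrn1 had a probe at chr13:36817941-36818000 on the minus strand (base 1100) and another at chr13:36822427-36822486 for an Ensembl transcript (base 51). Of these probes, 4 are written out, each 5′ to 3′: the second Tbr1 probe because its values differ from those of the first, the brighter Neurod1 probe because that gene could not be tested, and those of Fezf2 and Mef2c because these members differed least between the genotypes.
Tbr1, second probe: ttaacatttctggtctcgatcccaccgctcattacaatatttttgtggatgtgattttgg
Neurod1, base 923: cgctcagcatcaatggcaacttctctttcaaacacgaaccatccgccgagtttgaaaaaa
Fezf2: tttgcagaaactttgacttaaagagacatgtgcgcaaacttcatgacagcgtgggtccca
Mef2c: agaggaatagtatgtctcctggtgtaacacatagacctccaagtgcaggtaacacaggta

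Sequence upstream of the members was read from a RefSeq promoter table of build GRCm38.p6, which matched 7 of the 8 members by symbol with 9 windows. Nrn1 had no entry. The 250 bases before each start were searched on both strands for the E-box CANNTG, for CAGATG, a form of it bound by NeuroD factors, and for AGGTGTGA, a T-box element. An E-box occurred in windows of 6 of the 7 members. Counted by window, it was in 7 of the 9 windows and in 66.2% of the 32851 promoters in the table. CAGATG, which always overlaps a CANNTG match, occurred in 1 window each of Neurod2 and Mef2c and in 14.4% of all promoters. AGGTGTGA was in none of the member windows and in 1.1% of all promoters. The windows of Neurod2 (chr11:98329646-98329895, minus strand), Neurod6 (chr6:55681264-55681513, minus strand) and Emx1 (chr6:85187681-85187930, plus strand) are printed because these factors had higher means in heterozygous samples and their windows lie wholly before the annotated gene. Capitals mark CANNTG matches, of which Neurod2 had 3, Neurod6 had 2 and Emx1 had 1. A match describes the letters and is not a bound site.
Neurod2: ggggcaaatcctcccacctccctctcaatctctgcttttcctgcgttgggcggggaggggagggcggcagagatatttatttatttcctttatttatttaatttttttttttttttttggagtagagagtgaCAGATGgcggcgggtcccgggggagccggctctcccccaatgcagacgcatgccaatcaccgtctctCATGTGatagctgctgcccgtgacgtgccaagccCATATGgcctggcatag
Neurod6: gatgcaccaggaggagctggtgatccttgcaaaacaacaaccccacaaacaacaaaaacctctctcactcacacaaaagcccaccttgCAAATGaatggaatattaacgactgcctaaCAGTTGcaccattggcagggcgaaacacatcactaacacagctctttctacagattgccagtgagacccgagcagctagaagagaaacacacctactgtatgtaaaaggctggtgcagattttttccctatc
Emx1: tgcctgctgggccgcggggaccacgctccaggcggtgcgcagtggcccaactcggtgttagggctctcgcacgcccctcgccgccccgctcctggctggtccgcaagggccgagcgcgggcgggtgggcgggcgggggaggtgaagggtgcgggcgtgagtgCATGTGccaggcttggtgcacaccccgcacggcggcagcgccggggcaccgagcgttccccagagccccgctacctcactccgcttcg

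Values are given as normalised log2 intensities, in the order of replicates 1 to 4, so that the first and the third value of each genotype are Cy3 and the others Cy5. Intensities were background-corrected, normalised within and between arrays, and fitted with genotype and dye as terms and the array as a random block. SDs were taken after the mean of each dye was subtracted.

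Tbr1, the T-box factor of deep-layer neurons, measured 8.17, 12.29, 8.08 and 11.36 in wildtype samples. It measured 11.80, 13.09, 10.61 and 12.19 in heterozygous samples. Both wildtype Cy3 samples were not well above background, and all heterozygous samples were. Before normalisation, the wildtype spots read 274.1, 5100, 326.4 and 3064 and the heterozygous spots 2710, 19740, 694.7 and 8616, so the wildtype Cy3 spots were close to the negative controls. Both heterozygous Cy3 samples lay above both wildtype Cy3 samples, whereas in Cy5 the fourth heterozygous sample lay just under the second wildtype sample. The wildtype mean was 9.97 ± 0.76 and the heterozygous mean 11.92 ± 0.89 (SD, n = 4 each). The difference was 1.95 (SE 0.52, 95% interval 0.74 to 3.15, limma adjusted p = 0.436), and an exact two-sided permutation test over the 70 assignments of genotype gave p = 0.0571. The smallest p that this exact test allows is 0.0286. It treats the 8 samples as exchangeable, although each pair on an array is of 1 genotype, and with the array as the unit there are too few assignments to reach 0.05. In Cy3 the normalised level was 8.44-fold higher, which rests on dim wildtype spots and on the scaling of the arrays. Before normalisation, heterozygous replicate 3 read 694.7 and wildtype replicate 3 read 326.4. In Cy5 the level was 1.76-fold higher.

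The second Tbr1 probe stayed close to background, where wildtype samples read 7.45, 7.73, 7.37 and 7.53 and heterozygous samples 7.79, 7.72, 7.74 and 7.49. It was well above background in the 4 Cy5 samples alone. Fitted as a single probe, an alternative added after the data were seen, it differed by 0.16 (SE 0.115, limma adjusted p = 0.708 over 37889 probes). The probes of Tbr1 therefore disagreed in the size of the difference, and the gene was represented by the brighter one.

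Neurod2, an E-box binding factor of excitatory neurons, measured 9.13, 11.29, 8.49 and 10.31 in wildtype samples and 11.35, 12.06, 10.45 and 11.13 in heterozygous samples. All 8 were well above background. The heterozygous Cy3 samples exceeded the wildtype Cy3 samples by more than 1 log2 unit, and the Cy5 samples overlapped. Before normalisation, heterozygous replicate 3 read 641.1 and the wildtype Cy3 spots read 461.8 and 419.1. The size of the Cy3 difference thus rests in part on the scaling of the arrays. The means were 9.80 ± 0.60 and 11.25 ± 0.65 (SD, n = 4 each), with a difference of 1.44 (SE 0.397, 95% interval 0.53 to 2.36, limma adjusted p = 0.456). The exact permutation test gave p = 0.0571. The level was 4.26-fold higher in Cy3 and 1.74-fold higher in Cy5.

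Neurod6, the related factor that marks most pyramidal neurons, measured 7.28, 9.95, 7.38 and 8.67 in wildtype samples. The heterozygous samples measured 9.52, 10.09, 8.10 and 9.15. Among the Cy3 samples only heterozygous replicate 1 was well above background, and the Cy5 samples of the genotypes overlapped. The intensity before normalisation was 264.1 in the library labelled heterozygous replicate 3 and 259.7 in wildtype replicate 3, so their normalised gap rests on the scaling of the arrays. The difference in means was 0.89 (SE 0.444, 95% interval -0.13 to 1.92, limma adjusted p = 0.619), which the spread between replicates covers, and the exact permutation test gave p = 0.114. Without heterozygous replicate 1 the difference was 0.47. The Cy5 level was 1.23-fold higher, and no fold is given for Cy3, where 1 of 4 samples was well above background.

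Neurod1, the member of that family used in early differentiation and in granule neurons, had no probe well above background in at least 4 samples and was left out of the gene fit. With the probe at base 923, wildtype samples measured 6.73, 7.54, 6.57 and 7.24 and heterozygous samples 7.27, 8.05, 7.29 and 8.31. Of these, 1 wildtype and 2 heterozygous samples, all Cy5, were well above background. In each dye both heterozygous values lay above both wildtype values. Most of these values were too dim for a fold or a test to be given. The probe at base 1611 measured 6.96, 7.23, 6.83 and 6.89 in wildtype samples, none well above background, and 7.06, 7.83, 7.47 and 7.81 in heterozygous samples, of which both Cy5 samples were. No fold is given for it either.

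Emx1, the homeobox gene of the dorsal telencephalon, measured 7.22, 8.86, 7.80 and 8.33 in wildtype samples and 9.13, 10.00, 8.70 and 9.08 in heterozygous samples. Of these, 2 wildtype and 3 heterozygous samples were well above background. Within each dye both heterozygous samples lay above both wildtype samples. The means were 8.05 ± 0.35 and 9.23 ± 0.44 (SD, n = 4 each). The difference was 1.18 (SE 0.26, 95% interval 0.57 to 1.78, limma adjusted p = 0.433), and the exact permutation test gave its smallest p, 0.0286. Its Cy5 level was 1.93-fold higher, and no fold is given for Cy3, where 1 of 4 samples was well above background. Before normalisation the Cy3 spot read 321.7 in the library labelled heterozygous replicate 3 and 322.1 in wildtype replicate 3, so the gap between these 2 samples rests on the scaling of the arrays.

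Fezf2, the factor of subcerebral projection neurons, measured 8.51, 9.08, 8.56 and 8.39 in wildtype samples and 9.02, 9.69, 8.14 and 8.39 in heterozygous samples. Of these, 3 wildtype and 3 heterozygous samples were well above background, and wildtype replicate 1 and heterozygous replicate 3 were not. Heterozygous replicates 1 and 2, which shared an array, were the highest samples of their dyes. Heterozygous replicate 3 lay below both wildtype Cy3 samples, and heterozygous replicate 4 lay level with wildtype replicate 4. The groups overlapped, and the difference of 0.18 (SE 0.321, 95% interval -0.56 to 0.92, limma adjusted p = 0.883) was smaller than the spread between replicates. The exact permutation test gave p = 0.60. Without the array of heterozygous replicates 1 and 2 the difference was -0.37, and without replicate 2 alone it was -0.13, so its direction rests on that array.

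Mef2c measured 8.73, 9.28, 8.35 and 8.99 in wildtype samples and 8.84, 9.72, 8.59 and 9.49 in heterozygous samples. All but the library labelled heterozygous replicate 3 were well above background. The heterozygous Cy5 samples lay above the wildtype Cy5 samples, and the Cy3 samples overlapped. The difference was 0.32 (SE 0.146, 95% interval -0.02 to 0.65, limma adjusted p = 0.60), with an exact permutation p of 0.0571.

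Nrn1, the neuritin gene, measured 9.05, 11.83, 8.42 and 10.54 in wildtype samples and 11.65, 12.39, 10.81 and 12.29 in heterozygous samples. All 8 were well above background, and within each dye both heterozygous samples lay above both wildtype samples. The means were 9.96 ± 0.70 and 11.79 ± 0.52 (SD, n = 4 each). The difference was 1.83 (SE 0.391, 95% interval 0.92 to 2.73, limma adjusted p = 0.425), with an exact permutation p of 0.0286. The level was 5.64-fold higher in Cy3 and 2.24-fold higher in Cy5. Before normalisation the Cy3 spots read 441.5 and 402.9 in wildtype samples and 2543 and 779.2 in heterozygous samples. The size of the Cy3 fold thus rests in part on the scaling of the arrays. The second Nrn1 probe, for another transcript, was not well above background in any sample and lay between 6.82 and 7.28.

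**Figure D1:**
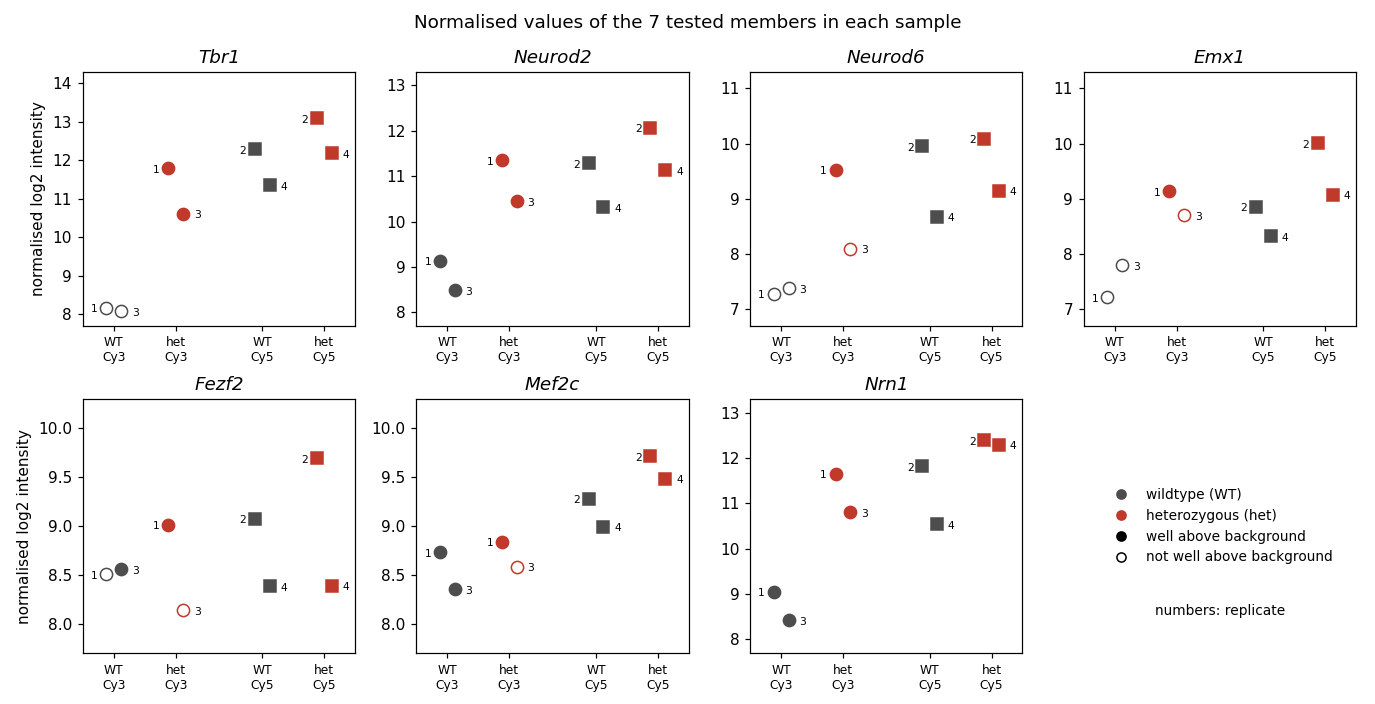
Normalised log2 intensity (vertical axis) of the 7 tested members in each sample, split by genotype and dye, with the replicate number beside each point and open symbols for samples not well above background. Both heterozygous Cy3 samples lie above both wildtype Cy3 samples for 5 members, against 15.2% of the genes with values in all samples. The same holds in Cy5 for 3 members, against 20.3% of those genes.

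Across the set, 7 of 7 tested members had a positive difference, and 47.8% of all genes tested did. At an unadjusted limma p under 0.05, 4 members (Tbr1, Neurod2, Emx1 and Nrn1) were higher, where 4.36% of all genes were, and none was lower. The adjusted p was under 0.05 for 0 of the 7 members and for 0% of the 19844 genes, while 865 genes were higher and 840 lower at an unadjusted p under 0.05. The smallest adjusted p of any gene was 0.139. The median difference was 1.18 over the members and -0.01 over all genes, whose median absolute difference was 0.14. These members were named with earlier results of these samples known, so the counts describe the set and are not an independent test of it. Without the library labelled heterozygous replicate 3, the differences were 1.90 for Tbr1, 1.84 for Nrn1, 1.44 for Neurod2, 1.18 for Emx1, 1.01 for Neurod6, 0.39 for Mef2c and 0.34 for Fezf2. In an RNA sample of whole tissue, more cells of a type and more RNA per cell cannot be told apart, nor can fewer cells and less RNA.

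**Figure D2:**
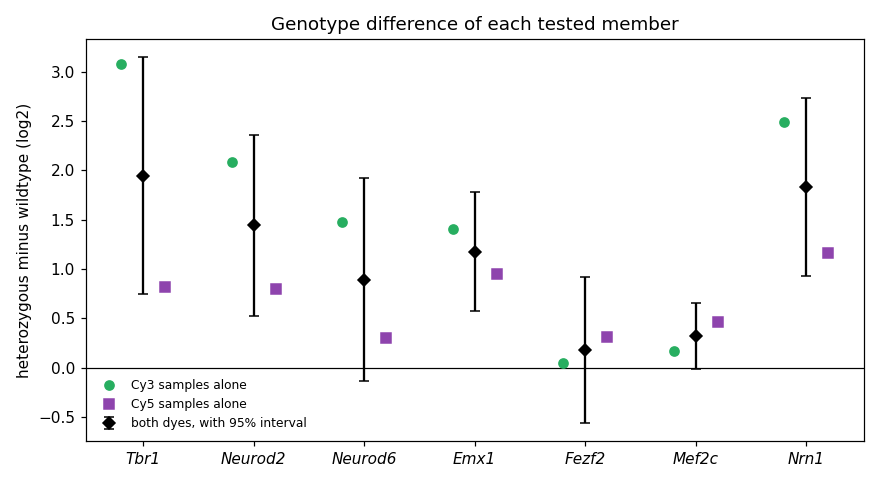
Difference between heterozygous and wildtype means (vertical axis, log2) for each tested member, with the 95% interval of the fit as a bar on the diamond, and the differences within Cy3 (circles) and within Cy5 (squares). The intervals of Neurod6, Fezf2 and Mef2c include 0, and the Cy3 difference of Tbr1, 3.08, exceeds its Cy5 difference, 0.81.

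The dyes differed in how far they separated the genotypes. Both heterozygous Cy3 samples lay above both wildtype Cy3 samples for 5 of 7 members, against 15.2% of the 18583 genes with values in all samples. In Cy5 this held for 3 members (Emx1, Mef2c and Nrn1), against 20.3% of genes, and in both dyes for Emx1 and Nrn1, against 4.6%. The Cy3 difference was larger than the Cy5 difference for Tbr1, Neurod2, Neurod6, Emx1 and Nrn1 and smaller for Fezf2 and Mef2c. The interaction of genotype and dye was largest for Tbr1, at -2.26 (SE 0.656) for Cy5 minus Cy3, and its limma adjusted p was 0.948. No member's interaction had an adjusted p under 0.05.

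Samples of a genotype also differed among themselves, and the order of the samples was much the same for several members. Relative to the wildtype mean and with dye means subtracted, Tbr1 stood at 3.11, 1.83, 1.92 and 0.93 in heterozygous replicates 1 to 4, and at -0.52, 1.03, -0.61 and 0.10 in the wildtype replicates. Averaged over the 7 members, the heterozygous samples stood at 1.75, 1.28, 0.90 and 0.52 and the wildtype samples at -0.14, 0.64, -0.29 and -0.21. Wildtype replicate 2 thus lay above heterozygous replicate 4. The array of heterozygous replicates 1 and 2 exceeded that of replicates 3 and 4 for all 7 members, by 0.24 (Mef2c) to 1.18 (Neurod6). In wildtype, the array of replicates 1 and 2 exceeded the other for 6 of 7, the exception being Emx1 with a gap of -0.02. Each array held 1 genotype, so with 2 arrays a genotype, array and genotype cannot be fully told apart.

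**Figure D3:**
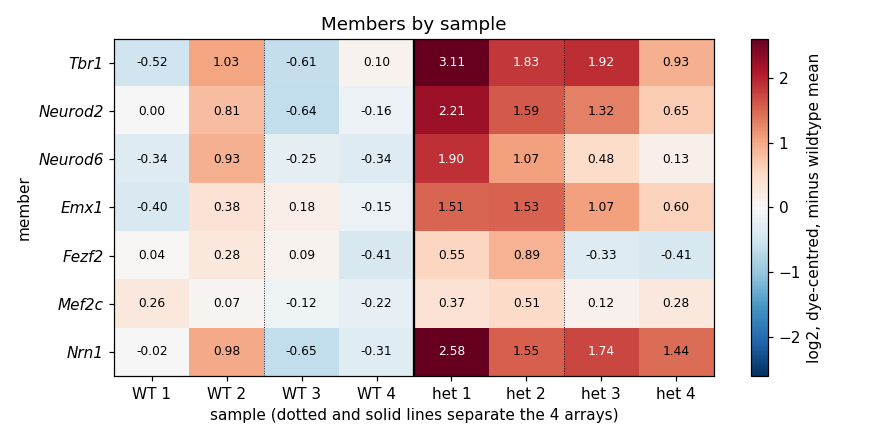
Level of each tested member (rows) in each sample (columns), as the log2 value with dye means subtracted, relative to the wildtype mean, in colour and printed in each cell. Heterozygous replicate 1 has the highest value for Tbr1, Neurod2, Neurod6 and Nrn1, and wildtype replicate 2 is the highest wildtype sample for Tbr1, Neurod2, Neurod6, Emx1, Fezf2 and Nrn1.

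As a description over the 8 samples, which include the difference between genotypes and share arrays, Tbr1 and Neurod2 had a Pearson r of 0.976 (Spearman rho 0.952). Tbr1 and Nrn1 had r = 0.958 (rho 0.952), and Neurod2 and Nrn1 had r = 0.967 (rho 0.952). The lowest of the 21 pairs was Fezf2 with Nrn1, at r = 0.356 (rho 0.381). Set against the mean standardised profile of the other members, r was 0.961 for Neurod2, 0.923 for Neurod6, 0.908 for Tbr1, 0.898 for Emx1, 0.897 for Nrn1, 0.725 for Mef2c and 0.571 for Fezf2. Fezf2 and Mef2c were thus the members least like the rest. Among 15711 other and member genes with a symbol, the 8 non-members with the highest r to the members' mean profile were Pou6f1 (0.985), Dnm1 (0.985), Tmem178 (0.983), Efr3a (0.98), Coro2a (0.98), Dgka (0.974), Cnih3 (0.972) and Efhd2 (0.972). Pou6f1 encodes a POU-domain transcription factor, Dnm1 the dynamin of synaptic vesicle endocytosis, and Cnih3 an auxiliary protein of AMPA receptors. Their differences between genotypes were positive, from 0.33 (Coro2a) to 1.10 (Tmem178), and none passed the adjusted threshold.

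Other genes of cortical excitatory neurons had differences in both directions. Of 23 such genes, all tested, 14 had a positive and 9 a negative difference, with a median of 0.19. That median was 0.08 without heterozygous replicate 2 and 0.32 without the library labelled heterozygous replicate 3. At an unadjusted p under 0.05, 9 were higher and 3 lower, and 0 passed the adjusted threshold. By comparison, 47.8% of all genes tested had a positive difference and 4.36% were higher at that p. Slc17a7, which loads glutamate into vesicles of cortical neurons, measured 7.78, 10.77, 7.84 and 10.22 in wildtype samples. The heterozygous samples measured 11.48, 12.08, 9.69 and 12. Its wildtype Cy3 samples were not well above background, and within each dye both heterozygous samples lay above both wildtype samples. The difference was 2.16 (SE 0.41, limma adjusted p = 0.425). Tafa1, a secreted neuronal protein gene, differed by 0.81 (SE 0.139), and Rprm by 0.63 (SE 0.157). Tafa1 was well above background in only 2 wildtype and 2 heterozygous samples. Over the whole list, the mean level relative to wildtype ran from -0.16 to 0.16 in wildtype and from 0.09 to 0.57 in heterozygous samples, with Slc17a7 not well above background in the wildtype Cy3 samples.

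Relatives of the members in the same gene families had differences centred near 0. Of 12 relatives, 7 were tested, 4 with a positive and 3 with a negative difference, and the median was 0.01 (-0.07 without heterozygous replicate 2). Eomes, Tbx21, Neurod4, Neurog3 and Fezf1 had no probe well above background in enough samples. The smallest p belonged to Nrn1l, the neuritin-like gene, at -0.43 (SE 0.113, limma adjusted p = 0.433). Mef2d differed by 0.20 (SE 0.167) and Mef2b by -0.10 (SE 0.113). At an unadjusted p under 0.05, 0 relatives were higher and 1, Nrn1l, was lower.

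Regulators and partners of the members were more often higher than lower in heterozygous samples, by their means. All 18 were tested, 13 with a positive and 5 with a negative difference, and the median was 0.25 (0.13 without wildtype replicate 3). At an unadjusted p under 0.05, 6 were higher and 0 lower. Of all genes tested, 47.8% had a positive difference and 4.36% were higher at that p. Tcf4, whose E protein pairs with NeuroD factors, differed by 0.56 (SE 0.117, limma adjusted p = 0.425). Bcl11a, a zinc finger factor of upper and deep cortical layers, differed by 0.61 (SE 0.151). Zfpm2, a cofactor of corticothalamic neurons, differed by 0.53 (SE 0.157). None passed the adjusted threshold.

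Markers of other cells in the dissected tissue are set beside the members, and their part in the members' values was not tested. Of 24 genes of striatal projection neurons, 24 had a lower mean in heterozygous samples, whereas 47.8% of all genes tested had a higher one. The median difference of the 24 was -0.38, 5 were lower at an unadjusted p under 0.05 and 0 passed the adjusted threshold. Among all 19844 genes tested, 840 were lower at that unadjusted p. Foxp1, a forkhead factor of these neurons, differed by -0.69 (SE 0.166), Ebf1 by -0.36 (SE 0.12) and Six3 by -0.39 (SE 0.142). Drd1 differed by -0.50 (SE 0.351) and Drd2 by -0.27 (SE 0.301). The list's mean level ran from -0.08 to 0.10 in wildtype samples and stood at 0.04, -0.60, -0.86 and -0.15 in heterozygous replicates 1 to 4. The order of the samples therefore differed from that of the members: heterozygous replicate 1 had the highest member level and a striatal level within the wildtype range. Without the library labelled heterozygous replicate 3, the median of the striatal list was -0.17.

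Interneuron genes, some of which are also expressed in cortex, had a median of 0.01 over 11 tested genes, 6 positive and 5 negative, and a mean level of -0.18 to 0.10 in wildtype and 0.11 to 0.34 in heterozygous samples. Leaving out the library labelled heterozygous replicate 3 gave a median of 0.28. The part of these genes in the members' values was not tested. Vip differed by 0.97 (SE 0.248), Cort by 0.89 (SE 0.256) and Slc5a7, the choline transporter of striatal cholinergic neurons, by -0.66 (SE 0.198). Vip was well above background in only 2 wildtype and 3 heterozygous samples. Among 7 genes of claustral, endopiriform and subcortical glutamate neurons, 3 were positive and 4 negative, with a median of -0.20. That median was -0.01 without wildtype replicate 1, -0.30 without wildtype replicate 3 and -0.09 without the library labelled heterozygous replicate 3. Slc17a6, the vesicular glutamate transporter of thalamic and other subcortical neurons, differed by 1.14 (SE 0.232), Synpr by -0.88 (SE 0.303) and Gnb4 by -0.47 (SE 0.171). Slc17a6 was well above background in only 2 wildtype samples and in 4 heterozygous samples. None of these passed the adjusted threshold.

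The remaining lists had medians between -0.13 and 0.45. The median was 0.02 over 9 neuroblast genes (Sp8 0.29, Dcx 0.28, Dlx5 -0.19), 0.01 over 7 astrocyte genes (S100b 0.43, Aldoc 0.20, Gfap 0.20) and 0.17 over 7 oligodendrocyte genes (Mbp -0.55, Mal 0.26, Cnp 0.32). Leaving out the library labelled heterozygous replicate 3 gave an oligodendrocyte median of -0.11, and it was 0.02 without wildtype replicate 1, 0.33 without heterozygous replicate 1 and 0.36 without heterozygous replicate 4. Without heterozygous replicate 1 the neuroblast median was 0.18 and the astrocyte median 0.17. The median was 0.01 over 11 genes of microglia and endothelium (Tek 0.37, Aif1 -0.41, Kdr -0.40) and -0.13 over 11 activity-induced genes (Bdnf 0.57, Homer1 -0.33, Fosb -0.13). Tek and Bdnf were each well above background in only 2 wildtype and 3 heterozygous samples. The activity-induced median was 0.01 without wildtype replicate 2 and -0.05 without heterozygous replicate 2, and -0.20 and -0.235 without wildtype replicates 1 and 4. The 5 choroid plexus genes had a median of 0.45 (Kl 0.42, Ttr 0.97, Otx2 0.45), and their mean level stood at -1.02, 0.26, 1.89 and 0.61 in heterozygous replicates 1 to 4 against -0.19 to 0.19 in wildtype samples. Heterozygous replicate 1, the highest sample for the members, was the lowest for these genes, and without the library labelled heterozygous replicate 3 the median was -0.11. It was 0.95 without heterozygous replicate 1 and 0.74 without heterozygous replicate 4. No gene of these lists passed the adjusted threshold.

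**Figure D4:**
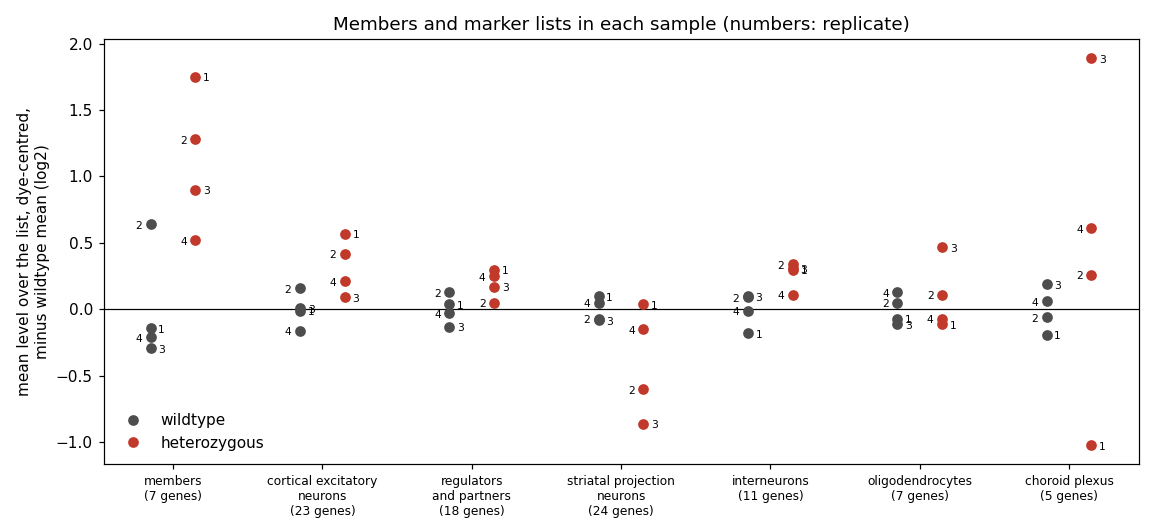
Mean level over the members and a selection of the lists in each sample (vertical axis, log2, dye means subtracted, relative to the wildtype mean). The replicate number stands beside each point. The lists drawn are cortical excitatory neurons, regulators and partners, striatal projection neurons, interneurons, oligodendrocytes and choroid plexus. Heterozygous replicate 1 has the highest level of the members (1.75), replicate 3 the lowest level of striatal projection neuron genes (-0.86), and the choroid plexus genes run from -1.02 to 1.89 in heterozygous samples.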

How the data were processed

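Spot intensities (mean brightness and median local background, linear scale) were extracted by the authors with Agilent Feature Extraction 10.7.3.1 from array design 026655, per the file headers. In the deposited value table, each sample's column holds the ratio of a spot's background-subtracted median intensity to its column's median. This was found from the values: listed spots all matched (relative tolerance 0.0001) and column medians were 1, with no log, gene centring or ratio between samples, so its scale is known. It served as an alternative only. The 4 arrays each gave 1 file for both samples, of which a sample's own dye was used.

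Intensities were corrected with normexp (offset 50), normalised by loess within and Aquantile between arrays, and split into log2 values in R 4.3.3 with limma 3.58.1 and statmod 1.5.0. There were 43020 spots of 39429 probes beside 1377 control spots, which were left out, as were outlier spots (230 to 978 a sample), and 0 spots were saturated. Probes well above background in at least 4 of 8 samples were kept (25338), the brightest standing for its gene. Genes were named from the RefSeq table of assembly GRCm38.p6. Accessions named 27234 probes, symbols 3576, and 8619 kept the file's name. limma's lmFit and eBayes used genotype and dye as terms and the array as random block (consensus correlation 0.0097), with Benjamini-Hochberg adjustment over 19844 genes and a threshold of 0.05. For Tbr1 in Cy3, flooring the wildtype values at the lowest signal well above background in each sample left the fold at 8.44. The wildtype Cy3 values, 8.17 and 8.08, already lay above these floors of 8.14 and 7.75. Flooring therefore could not change this fold and is no check on it. Slide and scan were not tested as batches, as there was 1 of each.

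The members and lists were chosen with earlier results of these data known. Named are the members, Brd2, Slc17a7, Drd1, Drd2, in each list the 3 genes of smallest p, and the 8 genes most correlated with the members' mean profile. A further gene that the rule picks is not reported here. The lists were cortical excitatory neurons, family relatives, regulators and partners, striatal projection neurons, claustral and subcortical glutamate neurons, interneurons, neuroblasts, astrocytes, oligodendrocytes, microglia and endothelium, choroid plexus and activity-induced genes. The fit was tested on simulated data. Figures were drawn with matplotlib 3.10.9.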

Additional observations from a re-analysis of the deposited data

Results flagged for a closer look

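Neurod6 in wildtype replicate 2 lay far from the other wildtype samples, at 9.255 (log2, dye mean subtracted), where the others lay between 7.98 and 8.07. Of those others, wildtype replicates 1 and 3, both Cy3, were not well above background for Neurod6. The first Neurod1 probe, at base 1611 of its transcript, lay low in heterozygous replicate 1, at 7.244, where the other heterozygous samples lay between 7.63 and 7.65. Neither Neurod1 value of that dye was well above background. A gap of this size arises by chance in about 1 group in 20.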

How the results depend on the processing

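All 27 alternatives kept the positive direction of Tbr1 (0.81 to 3.08), Neurod2 (0.80 to 2.09), Neurod6 (0.30 to 1.49), Emx1 (0.83 to 1.81), Nrn1 (1.16 to 2.50) and Mef2c (0.15 to 0.50) wherever the member was tested, and no member passed the adjusted threshold in any (smallest adjusted p 0.194, Nrn1). Fezf2 ran from -0.37 to 0.72: it reversed without heterozygous replicates 1 and 2 together (-0.366), without replicate 1 (-0.015) and without replicate 2 (-0.133), and leaving out single samples gave -0.13 to 0.34. Only 2 members, Neurod2 and Nrn1, were well above background in all 8 samples, and under that filter 2 of 2 were positive, because fewer genes were tested. The median of the cortical list was then -0.05 over 15 genes. A single gene passed the adjusted threshold when probes of a gene were averaged (1 gene, Timp2) and 1 in Cy5 alone (Sv2c), both named after their values were seen; the cause was not tested. Genes at an unadjusted p under 0.05 numbered 131 without Aquantile, 627 in Cy3 alone, 817 without heterozygous replicate 4, 963 under the filter on all 8 samples, 973 in the value table and 2994 without the array of heterozygous replicates 1 and 2, against 1705 in all. With the replicate number as a block (replicate block), 0 genes passed, 1823 had an unadjusted p under 0.05, and 6 of 7 members did. Same-numbered samples did not deviate together (r 0.162, -0.29, -0.186 and -0.251). These values gave no sign of pairing by number, but with 4 samples a genotype they cannot exclude it. Dim Cy3 spots, close to negative controls, limit the Cy3 values of Tbr1, Neurod6, Neurod1, Emx1 and Fezf2, and that of Mef2c in heterozygous replicate 3.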

Other observations

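Within the cortical excitatory list, 7 further genes were higher or lower by larger amounts than most, and they were named after their values were seen. Cck, a neuropeptide gene of cortical neurons, was higher in heterozygous samples by 1.68 (log2, SE 0.451), Ccn2, a marker of the deepest cortical layer, by 1.37 (SE 0.447), Bhlhe22 by 0.92 (SE 0.275), Cux2, an upper-layer factor, by 0.82 (SE 0.259) and Nptx1 by 0.78 (SE 0.224). Of these, Bhlhe22 was well above background in only 2 wildtype and 2 heterozygous samples, and Nptx1 in 2 and 3. Crym and Pou3f1 differed in the other direction, by -1.23 (SE 0.468) and -0.81 (SE 0.235). Among interneuron genes, Pvalb, the parvalbumin gene, was higher by 1.60 (SE 0.654). In limma their adjusted p-values ran from 0.436 (Cck) to 0.561 (Pvalb), so none passed the threshold.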
